A study of Homo sapiens with 4 samples.

Results

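The 6 genes described here are 4 type II hair keratins (KRT81, KRT82, KRT83 and KRT86) and 2 keratin-associated protein genes (KRTAP2-2 and KRTAP2-4), out of 19192 genes counted. They were selected by name on their RNA and ribosome footprint changes in these same libraries, so their direction is a description and not a finding. The data are read counts of total RNA and of ribosome-protected fragments (RPF) from SW480, an established human colorectal adenocarcinoma line labelled as intestinal epithelial. There were 4 libraries, 1 each of RNA and RPF from cells labelled IMP1-/- and 1 each from wild-type cells, and each was made from 3 pooled plates. IGF2BP1 encodes IMP1, a protein that binds RNA. The labels name no treatment, and they do not say how the gene was disrupted or whether the IMP1-/- cells are 1 clone. With 1 library per group there is no test between genotypes, and genotype cannot be told apart from clone or culture. For wild-type RNA the labels give SW840 as cell line and SW480 as source, while all other libraries carry SW480 in both, and which is right was not resolved.

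Keratins are the intermediate filament proteins of epithelia. A type II keratin pairs with a type I keratin to build a filament, and the hair keratins are the sets that fill the cortex and cuticle of the hair and nail. Keratin-associated proteins, of which the KRTAP2 family is a cysteine-rich group, form the matrix between these filaments and are cross-linked to them through disulfide bonds. KRT81, KRT83 and KRT86 are close copies expressed in the hair cortex, and mutations in them are known from the hair disorder monilethrix. KRT82 is a cuticle keratin, KRT85 appears early in the hair matrix, and KRT84 is best known from tongue papillae. Simple epithelia such as the gut normally use KRT8, KRT18, KRT19 and KRT20 instead.

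Totals were 4932388 and 3778316 counts in knockout-labelled RNA and RPF, against 5551479 and 3782874 in wild type. IGF2BP1 had 571 reads in knockout-labelled RNA and 598 in wild-type RNA, and 149 reads in knockout-labelled RPF against 285 in wild-type RPF. Its RNA was thus not lower in the library labelled IMP1-/-, and a gene-level count cannot tell whether a coding part was lost. Cells labelled IMP1-/- are therefore called knockout-labelled. The epithelial markers EPCAM, KRT8 and KRT18 had at least 1081 counts in every library. The intestinal markers KRT20, CDX1, CDH17 and LGR5 had at most 9 reads in any library, and KRT20 had 0 in all 4. CDX2, an intestinal transcription factor, was present, with 103 reads in knockout-labelled RNA and 268 in wild-type RNA, and 72 reads in knockout-labelled RPF against 108 in wild-type RPF. ASCL2, also on the intestinal list, had 69 reads in knockout-labelled RNA and 346 in wild-type RNA. In RPF it had 60 reads in the knockout-labelled library and 179 in wild type. VIL1, given below, was read mainly in wild type. Of the 12 markers on this list, 4 were at 0 in knockout-labelled RNA and 1 in wild-type RNA, and 5 were at 0 in knockout-labelled RPF against 4 in wild-type RPF.

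KRT81, KRT83 and KRT86 lie side by side and share long runs of coding sequence, which limits how well short reads can be divided among them. Their coding regions aligned over 1455 positions common to all 3, of which 1284 (88.2%) were identical in all 3 genes. Coding identity was 92.8% between KRT81 and KRT83, 92.9% between KRT81 and KRT86, and 90.1% between KRT83 and KRT86. Windows of 60 bases are shown to make this visible, taken from GENCODE release 29 (GRCh38) on the strand of each gene, with capitals at positions where the 3 genes are not all the same. The first is identical in all 3 and stands for the part of the genes where a footprint cannot be placed. It lies in exon 1 at chr12:52291184-52291243 (minus strand) for KRT81, chr12:52321039-52321098 (minus strand) for KRT83 and chr12:52302139-52302198 (plus strand) for KRT86.
KRT81, KRT83 and KRT86, exon 1: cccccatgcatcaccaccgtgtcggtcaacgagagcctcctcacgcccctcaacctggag
Windows compared were those aligned without gaps and within a single exon in all 3 genes. Of these, the next window has the most differences among the 3, in exon 3. It lies at chr12:52289216-52289275 for KRT81, chr12:52317911-52317970 for KRT83 and chr12:52304111-52304170 for KRT86.
KRT81, exon 3: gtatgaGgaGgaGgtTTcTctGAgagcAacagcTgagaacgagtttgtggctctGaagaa
KRT83, exon 3: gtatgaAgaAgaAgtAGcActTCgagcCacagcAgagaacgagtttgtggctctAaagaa
KRT86, exon 3: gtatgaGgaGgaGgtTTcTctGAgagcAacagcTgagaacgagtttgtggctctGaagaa
KRT83 differs there from both others at 11 positions, while KRT81 and KRT86 are still identical. The third window, in exon 5, has the most differences between KRT81 and KRT86. It lies at chr12:52288011-52288070 for KRT81, chr12:52316886-52316945 for KRT83 and chr12:52305318-52305377 for KRT86.
KRT81, exon 5: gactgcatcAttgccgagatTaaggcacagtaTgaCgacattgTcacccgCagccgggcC
KRT83, exon 5: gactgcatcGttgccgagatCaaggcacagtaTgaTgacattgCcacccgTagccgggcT
KRT86, exon 5: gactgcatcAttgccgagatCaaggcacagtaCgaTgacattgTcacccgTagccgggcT
KRT81 and KRT86 differ at 5 of the 60 positions in that window, the most for this pair among the windows compared. Stretches with gaps or across exon joins were not scored.

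The KRTAP2 genes are closer still. Among the 4 genes of the family, 370 of 372 aligned coding positions were identical, and pairwise coding identity was 99.5% to 100%. KRTAP2-2 has 372 coding bases and the other 3 have 387. The first 60 coding bases hold 1 position that differs, in capitals, which splits the 4 genes into 2 pairs. These windows lie on the minus strand at chr17:41055152-41055211 for KRTAP2-2, chr17:41065786-41065845 for KRTAP2-4, chr17:41047208-41047267 for KRTAP2-1 and chr17:41059991-41060050 for KRTAP2-3.
KRTAP2-2: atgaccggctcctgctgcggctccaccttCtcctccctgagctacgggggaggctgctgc
KRTAP2-4: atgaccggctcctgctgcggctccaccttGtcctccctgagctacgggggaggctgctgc
KRTAP2-1: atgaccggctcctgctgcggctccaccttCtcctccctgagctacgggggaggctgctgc
KRTAP2-3: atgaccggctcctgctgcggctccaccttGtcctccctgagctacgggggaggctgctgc

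All windows of 28 nt, about the length of a footprint, were searched in the transcripts of the other genes counted. For KRT81, 65.2% of coding windows were found in another gene, and most of these were shared with KRT86 (56.4% of KRT81 coding windows). For KRT86 the share was 63.3%, and for KRT83 it was 33.1%. KRT82 shared only 3.76% of its coding windows. Every coding window of KRTAP2-2 and of KRTAP2-4 was found in another KRTAP2 gene. In the 3′ untranslated regions (UTRs) the picture differed: no window of KRT81, KRT82, KRT83, KRT86 or KRTAP2-4 was shared, while 21.3% of those of KRTAP2-2 were. Footprints come mostly from coding regions, while RNA fragments can also come from the unique 3′ UTRs. The sources used here give neither the region counted nor how reads that match several genes were assigned.

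**Figure D1:**
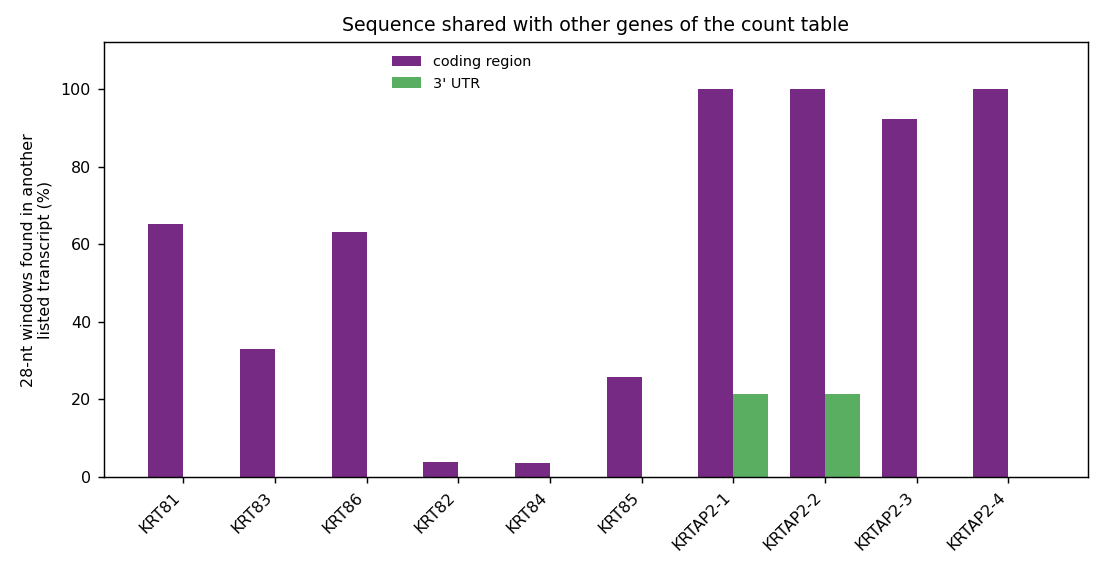
Percentage of 28-nt windows of each transcript that were found in the transcript of another counted gene, for coding regions (purple) and 3′ UTRs (green), in the 6 type II hair keratins and the 4 KRTAP2 genes. Coding windows of KRT81 and KRT86 were shared at 65.2% and 63.3% and those of KRT82 at 3.76%, while the 4 KRTAP2 genes stood at 92.2% to 100%.

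In total RNA, the 4 hair keratins were 11.9-fold to 17.6-fold higher in the knockout-labelled library. Changes are log2 ratios of knockout-labelled over wild type, scaled between libraries, with 95% intervals that cover counting error only. A gene was measured with at least 50 reads over both libraries, and called when it was at least 2-fold apart with an interval that excluded no change. All 4 hair keratins were measured and called higher. Over all genes measured in RNA, 6.39% were called higher and 8.35% lower, and since the genes were chosen on this contrast these shares are given for scale only. KRTAP2-2 and KRTAP2-4 were under 50 reads in RNA and were not measured there.

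KRT81 (ENST00000327741, chromosome 12, 52285913 to 52291534, minus strand, 9 exons) had 5041 reads in knockout-labelled RNA and 374 in wild-type RNA. Its RNA change was 3.90 (interval 3.75 to 4.06). KRT83 (ENST00000293670, chromosome 12, 52314301 to 52321398, minus strand) had 1224 reads in knockout-labelled RNA and 97 in wild-type RNA, a change of 3.80 (3.51 to 4.12). The intervals of these 2 cortex keratins overlapped, so their RNA changes were not distinguishable. KRT86 (ENST00000293525, chromosome 12, 52301865 to 52309163, plus strand) had 1617 reads in knockout-labelled RNA and 150 in wild-type RNA, a change of 3.58 (3.34 to 3.83). The cuticle keratin KRT82 (ENST00000257974, chromosome 12, 52393931 to 52406355, minus strand) had 118 reads in knockout-labelled RNA and 7 in wild-type RNA, a change of 4.13 (3.14 to 5.57). Its wide interval, set by the 7 wild-type reads, includes the RNA changes of the other 3.

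In ribosome footprints the 6 genes were 15.6-fold to 65.0-fold higher in the knockout-labelled library. KRT81 had 15170 reads in knockout-labelled RPF and 520 in wild-type RPF, which is 29.1-fold (log2 4.86, interval 4.74 to 5.00). In CPM, the read counts per 1000000 counts of the library, this was 4015 in knockout-labelled RPF and 137 in wild-type RPF. By read count alone, uncorrected for length, it ranked 13 of 13236 genes with a read in knockout-labelled RPF, and 1475 of 13144 in wild-type RPF. KRT83 had 2716 reads in knockout-labelled RPF and 107 in wild-type RPF (log2 4.66, 4.39 to 4.96). KRT86 had 2871 reads in knockout-labelled RPF and 183 in wild-type RPF (log2 3.97, 3.75 to 4.19). The interval of KRT86 lay below those of KRT81 and KRT83. These intervals do not cover how shared reads were divided, and 63.3% of KRT86 coding windows were found in another gene. KRT82 had 376 reads in knockout-labelled RPF and 11 in wild-type RPF (log2 5.03, 4.24 to 6.11). All 6 genes were measured in RPF and called higher, where 9.00% of genes measured were called higher and 9.87% lower.

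**Figure D2:**
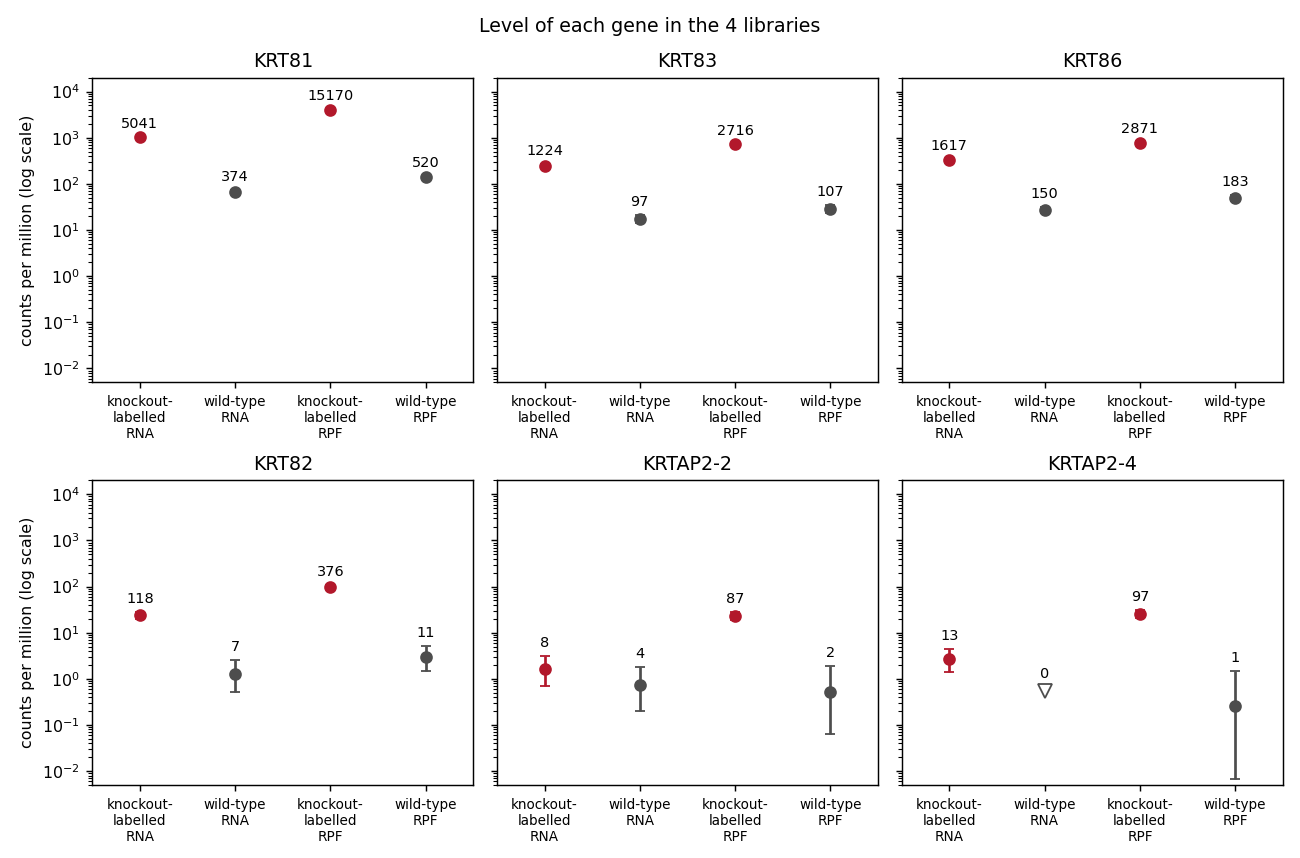
Level of each of the 6 genes as CPM (log axis) in the knockout-labelled (red) and wild-type (grey) RNA and RPF libraries, 1 point per library with its exact 95% Poisson interval and its read count above. The open triangle is the floor of 3 counts set for the 0 reads of KRTAP2-4 in wild-type RNA. The red point lies above the grey one in each pair, from 8 against 4 reads of KRTAP2-2 in RNA to 15170 against 520 of KRT81 in RPF.

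The 2 KRTAP2 genes were near the detection limit in wild-type cells. KRTAP2-2 (ENST00000398477, chromosome 17, 41054498 to 41055230, minus strand, 1 exon) had 87 reads in knockout-labelled RPF and 2 in wild-type RPF, a ratio of 35.0 with a counting interval of 11.7 to 365. In RNA it had 8 reads in the knockout-labelled library and 4 in wild type, a difference not detectable at this depth (log2 1.07, −0.75 to 3.33). KRTAP2-4 (ENST00000394015, chromosome 17, 41065116 to 41065879, minus strand, 1 exon) had 97 reads in knockout-labelled RPF and 1 in wild-type RPF, a ratio of 65.0 (17.0 to 3869). In RNA it had 13 reads in the knockout-labelled library and 0 in wild type, where a count of 0 allows up to 0.540 CPM. Set against 3 counts in wild-type RNA, this was at least 4.81-fold higher, or 2.56-fold at the lower counting bound of the 13 reads. With a prior count of 3 in place of 0.5, the RPF changes were log2 4.17 for KRTAP2-2 and 4.64 for KRTAP2-4, against 5.13 and 6.02. Footprints counted for both genes thus stood well above wild type, and their RNA rested on 12 and 13 reads in total. Every coding window of both genes is shared within the family, so a coding footprint cannot be placed in either gene alone.

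**Figure D3:**
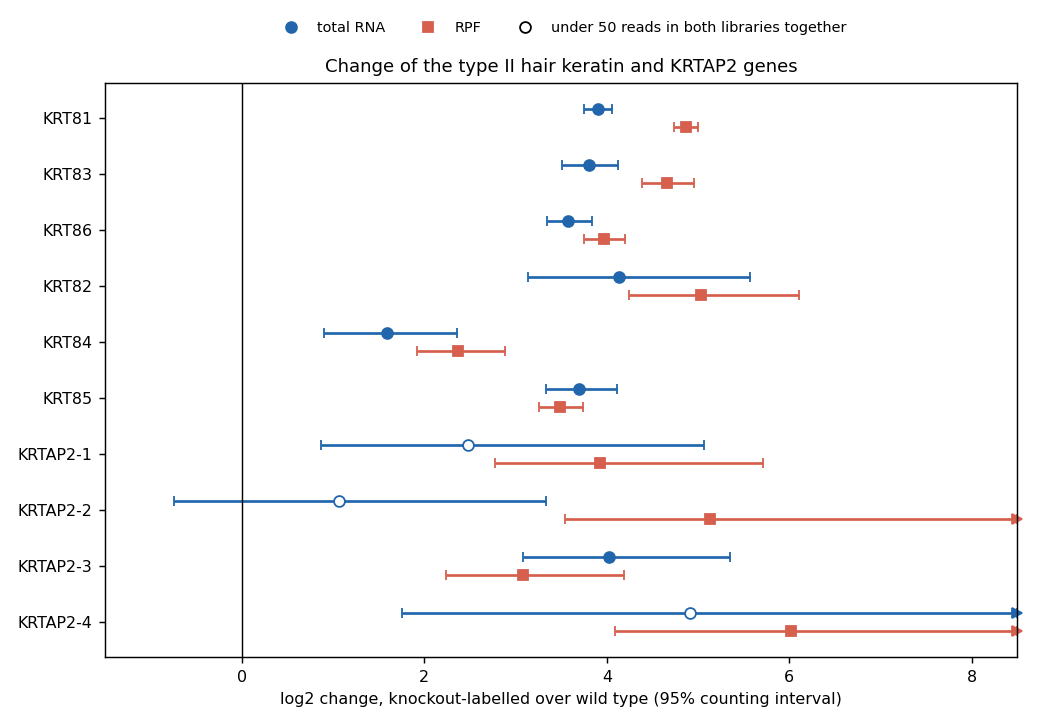
Log2 change, knockout-labelled over wild type, of total RNA (blue circles) and RPF (red squares) for the 6 type II hair keratins and the 4 KRTAP2 genes, with 95% counting intervals. Open symbols had under 50 reads over both libraries, and arrows mark intervals that run past the axis. RPF changes ranged from 2.37 for KRT84 to 6.02 for KRTAP2-4, and the RNA interval of KRTAP2-2 crosses 0.

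The split of reads within the KRTAP2 family differed between RNA and RPF. In knockout-labelled RNA the 4 genes had 17, 8, 124 and 13 reads from KRTAP2-1 to KRTAP2-4, and KRTAP2-3 held 76.5% of the 162 (exact 95% interval 69.2 to 82.8). In knockout-labelled RPF they had 83, 87, 97 and 97 reads, so each held 22.8% to 26.6% of the 364. In wild type the family had 15 RNA reads and 19 footprints in all. The near-even split of footprints stands beside coding regions that are shared at 92.2% to 100% of windows, and the part of that sharing in the split was not tested. Summed over the 4 genes, which avoids the split, the family was 11.6-fold higher in RNA (interval 7.06 to 21.9) and 18.7-fold higher in RPF (12.1 to 32.2).

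The same sum over KRT81, KRT83 and KRT86 gave 7882 reads in knockout-labelled RNA and 621 in wild-type RNA, a 14.1-fold change (13.0 to 15.3). In RPF the sum was 20757 reads in the knockout-labelled library and 810 in wild type, a 25.6-fold change (23.9 to 27.5). These 3 genes made up 0.549% of all counts in knockout-labelled RPF and 0.0214% in wild-type RPF.

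Compared per kb of transcript, KRT81 stood above the other 5 genes in every library. In knockout-labelled RNA it had 530 CPM per kb (exact 95% interval 515 to 545), followed by KRT86 at 157 (149 to 165), KRT83 at 132 (125 to 140), KRT82 at 8.98 (7.43 to 10.7), KRTAP2-4 at 3.45 (1.84 to 5.90) and KRTAP2-2 at 2.21 (0.955 to 4.36). The intervals of KRTAP2-4 and KRTAP2-2 overlapped, so their order is not set. In wild-type RNA, KRT81 had 34.9 CPM per kb, KRT86 12.9 and KRT83 9.32, and the intervals of KRT86 and KRT83 overlapped. KRT82 and KRTAP2-2 stood at 0.473 and 0.983 CPM per kb there, with overlapping intervals, and KRTAP2-4 was at 0. In knockout-labelled RPF, KRT81 reached 2081 CPM per kb, KRT83 383 and KRT86 363, with overlapping intervals for KRT83 and KRT86, while KRT82, KRTAP2-4 and KRTAP2-2 lay between 31.4 and 37.4 with overlapping intervals. In wild-type RPF, KRT81 had 71.3 CPM per kb, KRT86 23.1 and KRT83 15.1, and the other 3 genes had at most 1.09. Per kb of coding sequence, knockout-labelled RPF had KRT86 at 520 and KRT83 at 485, and KRTAP2-4 at 66.3 and KRT82 at 64.5. The order within these pairs thus depends on the length used.

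Translational efficiency (TE) is the RPF level over the RNA level, and its change is the RPF change minus the RNA change. The TE change was 0.96 for KRT81 (interval 0.77 to 1.16), 0.86 for KRT83 (0.45 to 1.26) and 0.39 for KRT86 (0.07 to 0.71). These intervals lie above 0, but no change reached 2-fold, so none was called. For KRT82 the TE change of 0.90 (−0.46 to 2.26) could not be told from 0. Of the 6 genes, 4 were measured for TE and 0 were called, where 6.46% of genes measured were called higher and 6.28% lower. Summed over KRT81, KRT83 and KRT86 the TE change was 0.86 (0.71 to 1.02), and summed over the KRTAP2 family it was 0.68 (−0.32 to 1.68).

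Within each genotype, the hair keratins carried more footprints per RNA read than most genes. The ratio of RPF CPM to RNA CPM of KRT81 was 3.93 in the knockout-labelled libraries, at percentile 98.3 of 9598 genes, and 2.04 in wild type, at percentile 85.5. KRT83 stood at 2.90 in the knockout-labelled libraries and 1.62 in wild type, and KRT86 at 2.32 in the knockout-labelled libraries and 1.79 in wild type. KRT82 had a ratio of 4.15 in the knockout-labelled libraries, against 2.25 (interval 0.897 to 5.65) in wild type. The median gene had a ratio of 1.096 in the knockout-labelled libraries and 1.082 in wild type.

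**Figure D4:**
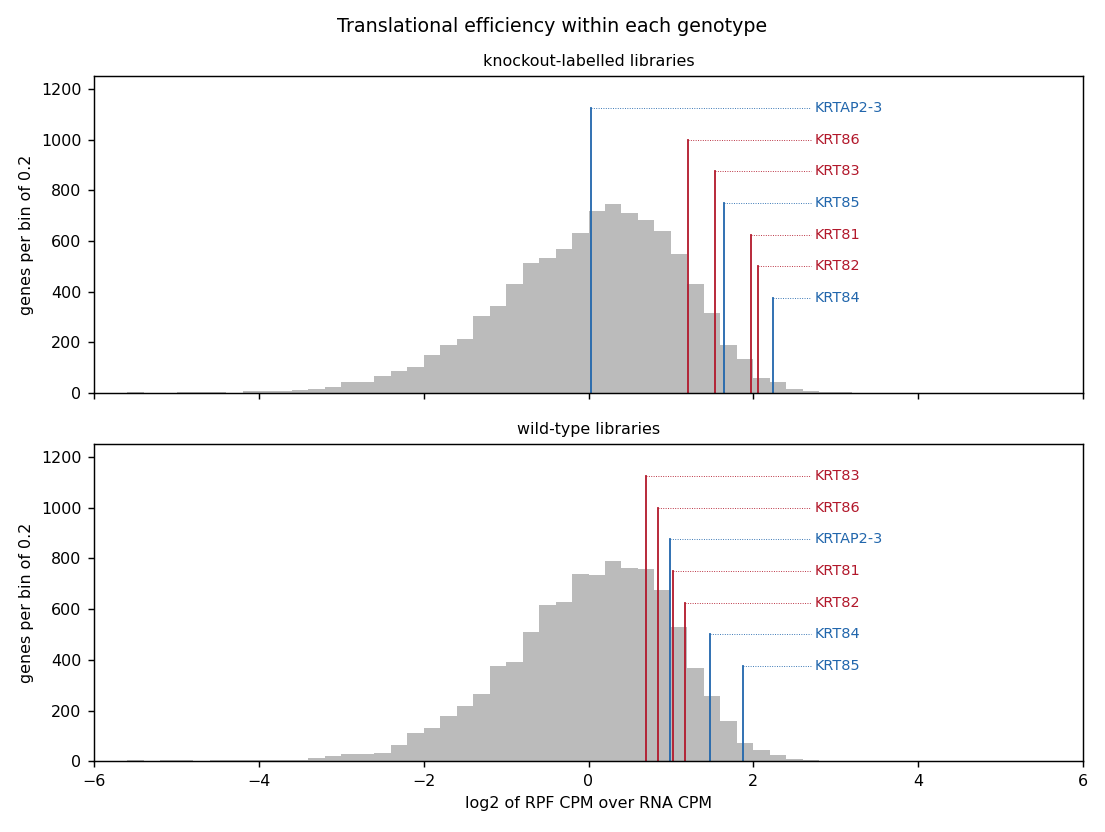
Distribution over 9598 genes of log2 of RPF CPM over RNA CPM in the knockout-labelled libraries (top) and in wild type (bottom), as genes per bin, with lines at KRT81, KRT82, KRT83 and KRT86 (red) and at KRT84, KRT85 and KRTAP2-3 (blue). KRT81 lies at percentile 98.3 in the knockout-labelled libraries and 85.5 in wild type, and KRT85 at 95.6 in the knockout-labelled libraries and 98.7 in wild type.

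The other type II hair keratins, KRT84 and KRT85, were also higher. KRT85, the early matrix keratin, had 717 reads in knockout-labelled RNA and 61 in wild-type RNA (log2 3.70, 3.33 to 4.11), and 1721 reads in knockout-labelled RPF against 153 in wild-type RPF (log2 3.49, 3.25 to 3.74). Its TE change was −0.21 (−0.65 to 0.24), an interval that lies below that of KRT81. KRT84 had 63 reads in knockout-labelled RNA and 23 in wild-type RNA (log2 1.58, 0.90 to 2.36), and 230 reads in knockout-labelled RPF against 44 in wild-type RPF (log2 2.37, 1.91 to 2.88). The RNA and RPF intervals of KRT84 lie below those of the 4 hair keratins described first. Of the coding windows of 28 nt, 25.9% of those of KRT85 and 3.66% of those of KRT84 were found in another gene. Its share of the reads of the 6 type II hair keratins was 0.718% in knockout-labelled RNA and 3.23% in wild-type RNA, while KRT81 held 57.4% in knockout-labelled RNA and 52.5% in wild-type RNA.

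The reads of all 6 type II hair keratins together made up 42.2% of type II keratin reads in knockout-labelled RNA and 2.87% in wild-type RNA. In RPF the share was 41.4% in the knockout-labelled library and 1.92% in wild type. Their pairing partners were not read at such levels: the 11 type I hair keratins held 0.371% of type I keratin reads in knockout-labelled RNA and 0.235% in wild-type RNA. These were 67 reads in knockout-labelled RNA and 70 in wild-type RNA. In RPF they had 22 reads in the knockout-labelled library and 12 in wild type. KRT39 was the only type I hair keratin with at least 50 RNA reads, at 41 in knockout-labelled RNA and 51 in wild-type RNA, and it had 0 footprints in the knockout-labelled library and 5 in wild type. KRT36 had 21 reads in knockout-labelled RNA and 7 in wild-type RNA, with 2 footprints in the knockout-labelled library and 4 in wild type.

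The 6 type II hair keratins lie next to each other within 120.4 kb of chromosome 12, with no other counted gene between them. Every one of them was called higher in RNA and RPF, but KRT81, KRT82, KRT83 and KRT86 were chosen on these changes. On the side of KRT81 the next genes are KRT7, a simple epithelial keratin, and KRT80, and neither was called. The changes of KRT80 were 0.85 (0.73 to 0.97) in RNA and 0.60 (0.47 to 0.73) in RPF, above 0 but under 2-fold. KRT7 had 61 reads in knockout-labelled RNA and 60 in wild-type RNA, and its RPF change was −0.04. On the other side, beyond KRT82, the next gene KRT75, a companion layer keratin, had an RNA change of 0.35 (−0.11 to 0.81) and an RPF change of −1.24. The genes after it were lower: KRT6B by RNA and RPF changes of −1.47 and −1.55, KRT6C by −3.32 and −2.99, and KRT6A by −1.59 and −1.93. The 3 KRT6 genes are close copies, so their separate values are uncertain. KRT5, the basal keratinocyte keratin, had 807 reads in knockout-labelled RNA and 5745 in wild-type RNA, and 2014 reads in knockout-labelled RPF against 12590 in wild-type RPF. In counted genes within 500 kb of the 4 hair keratins, these 4 left out, 2 of 15 measured in RNA were called higher and 5 lower, and the 2 were KRT84 and KRT85. In RPF 2 of 16 were called higher, again KRT84 and KRT85, and 9 were called lower. Over all genes measured, the shares were 6.39% higher and 8.35% lower in RNA, and 9.00% higher and 9.87% lower in RPF.

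**Figure D5:**
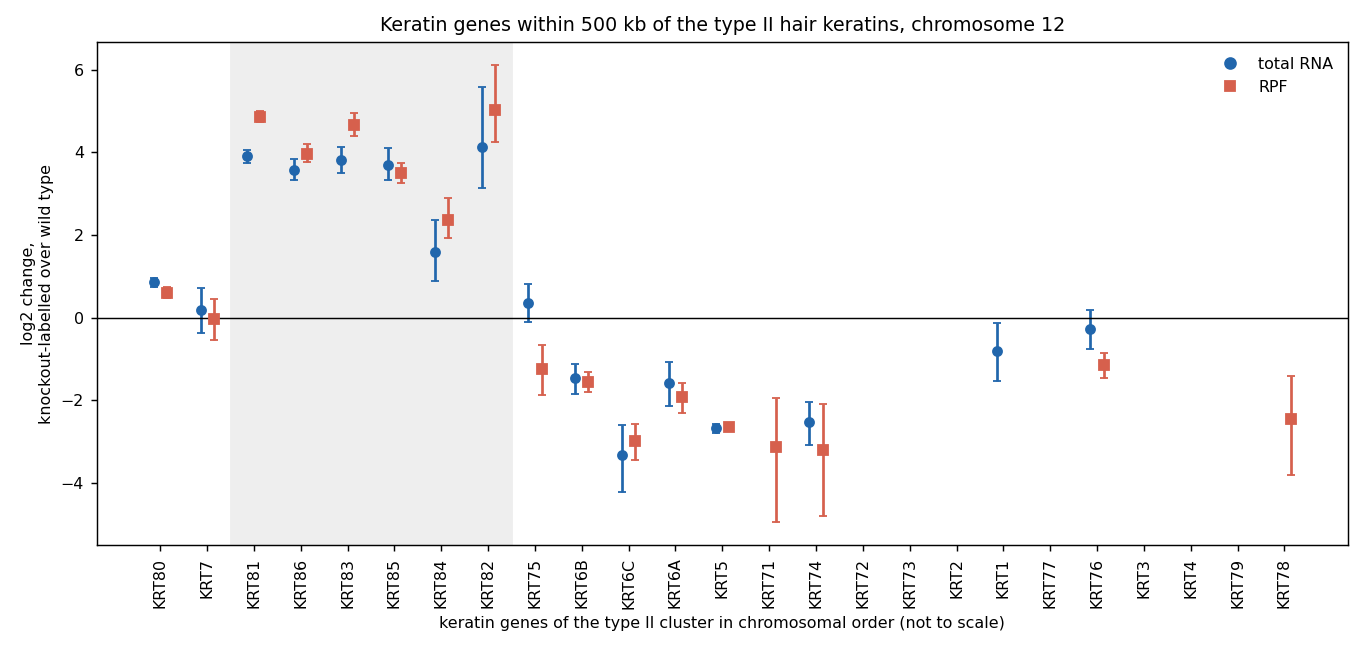
Log2 change of total RNA (blue circles) and RPF (red squares), knockout-labelled over wild type, with 95% counting intervals, for the keratin genes within 500 kb of the type II hair keratins in chromosomal order. Genes with under 50 reads in a kind have no point, and the grey band marks the 6 type II hair keratins. All 12 points in the band lie above 0, between 1.58 and 5.03, while KRT6B, KRT6C, KRT6A and KRT5 lie below 0. In the band, KRT81, KRT82, KRT83 and KRT86 were chosen on these changes.

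The 4 KRTAP2 genes lie within 19.3 kb on chromosome 17, also with no other counted gene between them. KRTAP2-1 had 83 reads in knockout-labelled RPF and 5 in wild-type RPF (log2 3.92, 2.77 to 5.71). KRTAP2-3 had 124 reads in knockout-labelled RNA and 8 in wild-type RNA (log2 4.02, 3.08 to 5.35), and 97 reads in knockout-labelled RPF against 11 in wild-type RPF (log2 3.08, 2.24 to 4.19). Of 92 KRTAP genes counted, 17 had a read in any library. KRTAP3-1, a neighbour of the KRTAP2 genes, had 71 reads in knockout-labelled RPF and 25 in wild-type RPF (log2 1.49, 0.83 to 2.22), with 33 reads in knockout-labelled RNA and 6 in wild-type RNA. KRTAP3-1 was called higher in RPF, and outside the KRTAP2 family it was the only KRTAP gene measured there. Of counted genes within 500 kb of KRTAP2-2 and KRTAP2-4, these left out, 4 of 9 measured in RPF were called higher and 1 lower. The 4 were KRTAP2-1, KRTAP2-3, KRTAP3-1 and KRT10. In RNA 1 of 10 was called higher, KRTAP2-3, and 2 lower. Shares over all genes measured were 9.00% higher and 9.87% lower in RPF, and 6.39% and 8.35% in RNA.

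Promoter sequences of these genes were taken from RefSeq (GRCh38.p14) where its table held them: KRT82, KRT84, KRT85 and the 4 KRTAP2 genes. Those of KRT81, KRT83 and KRT86 are not used here. The 250 bases before the RefSeq start are shown for 2 type II and 2 KRTAP2 genes. Capitals mark a word that the genes of each family share. Both words were found by comparing these promoters, so their presence in them is not a result. All lie on the minus strand, at chr12:52406336-52406585 for KRT82, chr12:52367482-52367731 for KRT85, chr17:41055231-41055480 for KRTAP2-2 and chr17:41065880-41066129 for KRTAP2-4.
KRT82: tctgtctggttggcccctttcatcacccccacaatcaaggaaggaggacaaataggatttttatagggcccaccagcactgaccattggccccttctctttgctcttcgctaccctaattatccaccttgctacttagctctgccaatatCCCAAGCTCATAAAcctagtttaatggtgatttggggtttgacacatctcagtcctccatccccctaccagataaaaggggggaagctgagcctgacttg
KRT85: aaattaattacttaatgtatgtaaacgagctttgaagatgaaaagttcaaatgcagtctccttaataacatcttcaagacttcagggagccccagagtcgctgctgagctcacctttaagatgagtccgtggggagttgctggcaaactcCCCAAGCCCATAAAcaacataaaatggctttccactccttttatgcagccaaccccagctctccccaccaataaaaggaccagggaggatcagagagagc
KRTAP2-2: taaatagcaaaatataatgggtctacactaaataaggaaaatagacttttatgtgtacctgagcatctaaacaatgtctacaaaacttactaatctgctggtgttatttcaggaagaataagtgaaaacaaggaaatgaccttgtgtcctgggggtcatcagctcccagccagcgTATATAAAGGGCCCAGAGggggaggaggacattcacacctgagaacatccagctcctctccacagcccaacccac
KRTAP2-4: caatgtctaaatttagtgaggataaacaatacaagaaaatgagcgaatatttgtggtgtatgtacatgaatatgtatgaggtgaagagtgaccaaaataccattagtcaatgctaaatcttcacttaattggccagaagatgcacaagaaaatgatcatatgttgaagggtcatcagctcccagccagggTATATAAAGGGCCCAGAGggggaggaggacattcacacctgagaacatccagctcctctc

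The word CCCAAGCNCATAAA, where N is any base, starts 100 bases before the start of KRT82 and of KRT85 and 101 before that of KRT84. Searched on both strands, it was in 3 of 35116 promoter windows (0.00854%), and those 3 were KRT82, KRT84 and KRT85. The word TATATAAAGGGCCCAGAG was in 4 windows (0.0114%), those of the 4 KRTAP2 genes, and it overlaps the TATA box TATAAA, which 10.7% of all windows held. CTTTGA, the core of the binding word of TCF and LEF factors, was in 11.2% of all windows and in 1 of these 7 promoters, that of KRT85. The windows searched were the 250 bases before each start, and a match is a description of letters, not of a bound site.

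Most other genes of hair follicles that were measured were not called higher. Among 28 hair follicle regulators counted, 18 were measured in RNA, of which 0 were called higher and 10 lower, with a median change of −1.09 against −0.01 over all genes. In RPF 14 were measured, 1 higher and 4 lower, with a median of −0.56 against −0.000651 over all genes. The shares called over all genes measured were 6.39% higher and 8.35% lower in RNA, and 9.00% higher and 9.87% lower in RPF. MSX1, a homeobox factor of hair and tooth, had 44 reads in knockout-labelled RNA and 686 in wild-type RNA. The receptor gene EDAR of ectodermal appendages had 362 reads in knockout-labelled RNA and 1089 in wild-type RNA, and the hedgehog receptor gene PTCH1 had 177 in knockout-labelled RNA and 796 in wild-type RNA. LEF1, a Wnt effector that acts in hair follicles, was lower in RNA (154 reads in the knockout-labelled library, 382 in wild type) and not called in RPF (130 reads in the knockout-labelled library, 122 in wild type). The regulator called higher in RPF was the homeobox gene DLX3, named after its values were seen, with 48 reads in knockout-labelled RPF and 13 in wild-type RPF, and it was called lower in RNA (17 reads in the knockout-labelled library, 43 in wild type, log2 −1.16). SOX9 was also lower in RNA, and EDARADD, BMP4 and VDR were not called in either kind. HOXC13 and FOXN1, known activators of hair keratin genes, were added after their values were seen, since they fell under the read minimum for naming. HOXC13 had 35 reads in knockout-labelled RNA and 11 in wild-type RNA, with 1 footprint in the knockout-labelled library and 11 in wild type, and FOXN1 had a single read, in wild-type RPF. At a minimum of 20 reads HOXC13 would be called higher in RNA (log2 1.78, 0.81 to 2.95).

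Among 30 partners of the hair shaft and of cornification, 7 were measured in RNA, 1 called higher and 2 lower, and 6 in RPF, 0 higher and 1 lower. Over all genes measured, 6.39% were called higher and 8.35% lower in RNA, and 9.00% higher and 9.87% lower in RPF. With so few genes measured, these counts are a description. S100A3, a calcium-binding protein of the hair cuticle, had 46 reads in knockout-labelled RNA and 389 in wild-type RNA, and 90 reads in knockout-labelled RPF against 620 in wild-type RPF. The desmosome gene DSP was lower in RNA (log2 −1.17), DSC2 was higher in RNA (77 reads in the knockout-labelled library, 19 in wild type), and JUP, PKP3, PADI1 and PADI3 were not called. Trichohyalin (TCHH), a hair root sheath protein, had at most 12 reads in any library.

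Of 22 keratins of stratified epithelium, 12 were measured in each kind, with 2 called higher and 5 lower in RNA, and 3 higher and 6 lower in RPF. For scale in all keratin lists here, 6.39% of genes measured in RNA were called higher and 8.35% lower. In RPF these shares were 9.00% and 9.87%. Besides KRT5 and the KRT6 genes, KRT13 was lower in RNA (38 reads in the knockout-labelled library, 99 in wild type), and KRT76 was lower in RPF (134 reads in the knockout-labelled library, 300 in wild type). KRT10, a keratin of differentiated epidermis, was higher in RPF (142 reads in the knockout-labelled library, 29 in wild type) with no call in RNA (86 reads in the knockout-labelled library, 118 in wild type). The 2 called higher in RNA were KRT16 and KRT17, keratins of stressed and wounded skin, which are named after their values were seen and were also called higher in RPF. KRT16 had 65 reads in knockout-labelled RNA and 16 in wild-type RNA, and KRT17 had 46 in knockout-labelled RNA and 11 in wild-type RNA. Among 9 inner root sheath and companion layer keratins, 2 were measured in RNA, 0 higher and 1 lower, and 3 in RPF, 0 higher and 3 lower. KRT74 had 37 reads in knockout-labelled RNA and 239 in wild-type RNA, and KRT71 had 5 reads in knockout-labelled RPF and 48 in wild-type RPF. Of the simple epithelial keratins, KRT8, KRT18, KRT19 and KRT7 were not called, and KRT23 was lower in RNA (log2 −1.11) and RPF (log2 −1.70).

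Markers of cell types were read alongside. The 12 intestinal epithelial markers summed to 28054 reads in knockout-labelled RNA and 46580 in wild-type RNA, and to 76829 in knockout-labelled RPF and 96194 in wild-type RPF. VIL1, which encodes the brush border protein villin, had 2 reads in knockout-labelled RNA and 160 in wild-type RNA, with 0 footprints in the knockout-labelled library and 335 in wild type. The epithelial adhesion gene CDH1 differed the other way, with 286 reads in knockout-labelled RNA and 83 in wild-type RNA, and 275 reads in knockout-labelled RPF against 88 in wild-type RPF. EPCAM had 1143 reads in knockout-labelled RNA and 1081 in wild-type RNA, and 1542 reads in knockout-labelled RPF against 1348 in wild-type RPF. The 7 keratinocyte markers summed to 946 reads in knockout-labelled RNA and 5934 in wild-type RNA, and to 2211 in knockout-labelled RPF and 12664 in wild-type RPF, most of them from KRT5. TP63, which defines basal keratinocytes, had 3 reads in knockout-labelled RNA and 0 in each other library. The 6 hair matrix and cortex markers summed to 759 reads in knockout-labelled RNA and 90 in wild-type RNA, and to 1740 in knockout-labelled RPF and 166 in wild-type RPF, and most of these reads were those of KRT85. Fibroblast markers (6 genes) had at most 27 reads and leukocyte markers (5 genes) at most 19 in any library. The part of any of these differences in the hair keratin values was not tested. In bulk libraries, more cells that express hair keratins and more RNA per cell cannot be told apart.

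Across the 4 libraries, the genes with the profile most like that of KRT81 were sought as the smallest Euclidean distance between log2 levels centred on each gene's mean. KRT82 (distance 0.230), KRT83 (0.419) and KRT86 (0.825) were among the 4 nearest. These genes were chosen on changes that enter the distance, and KRT81, KRT83 and KRT86 share coding sequence, so their closeness is not a finding. KRTAP2-3 (1.605) and KRT84 (2.43) stood at ranks 14 and 39. KRTAP2-2 and KRTAP2-4 had too few RNA reads to be included. The 5 nearest other genes were LCN2 (0.512), UPP1 (0.943), KRT85 (1.02), GZMB (1.02) and SLPI (1.38). LCN2, the gene of an iron-sequestering secreted lipocalin, had 691 reads in knockout-labelled RNA and 50 in wild-type RNA, and 1633 reads in knockout-labelled RPF against 92 in wild-type RPF. UPP1, a uridine phosphorylase gene, had 2138 reads in knockout-labelled RNA and 202 in wild-type RNA, and 3388 reads in knockout-labelled RPF against 172 in wild-type RPF. GZMB, which encodes a granzyme, had RNA and RPF changes of 4.42 and 3.56, and SLPI, a secreted protease inhibitor gene, of 2.48 and 3.52. With 4 libraries this likeness is a description.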

How the data were processed

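Raw whole-number counts of reads for each gene were deposited by the authors for 4 libraries, with 1 Ensembl transcript for each of 19192 genes. Fragment sizes were 18 to 34 nt for footprints and 18 to 50 nt for RNA, random identifiers of 4 and 5 nt sat in the linkers, and PCR ran for 15 cycles, per the labels' protocols. GRCh38, HISAT2 2.1.0, Bowtie 1.1.2 and cutadapt 1.10 appear in the submitters' processing notes. The sources used here do not say what each tool did, which annotation and which region were counted, or describe collapsing by identifier or the treatment of reads with several matches.

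Groups were taken from the library titles. Scaling within a kind of library used TMM factors from edgeR 4.0.16 (R 4.3.3). Log2 ratios used a prior count of 0.5. RNA and RPF intervals are exact conditional (Clopper-Pearson) 95% intervals, and TE intervals use the sum of reciprocal counts. Reads after PCR are not molecules, so intervals and floors cover counting error only. The interaction of kind and genotype has no residual degrees of freedom, so no p-value is given. Of the transcripts listed, 19176 were found in GENCODE release 29, and 18315 had the same symbol there. Levels per kb use whole transcripts. The remaining computations ran in Python 3.11.15 with pandas 2.3.3, SciPy 1.17.1 and NumPy 2.4.6.

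The members, lists and naming rule were chosen with earlier results of these data known. Named were the 6 genes, list genes with at least 50 reads in a kind (up to 8 per list by total reads), hair keratin and KRTAP genes with at least 20, and the 5 nearest to KRT81. Alternatives tried were DESeq2 1.42.0 size factors, total counts and upper-quartile scaling, other prior counts, and totals and TMM factors without 12 genes. Those 12 were chosen by name, the MTRNR2L genes and PLCG2. Other minimums and folds, summed families and other window settings were also tried.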

Additional observations from a re-analysis of the deposited data

How the results depend on the processing

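Each RNA, RPF and TE change of the 6 genes was recomputed under the other scalings, prior counts, totals and sums, giving 117 values. Of these, 0 changed sign and 114 stayed within the interval of the main setting. This count does not compare calls: KRTAP2-4 alone was under the read minimum in RNA, while the summed KRTAP2 family was called higher there. Scalings moved these values by at most 0.021 on the log2 scale. The 3 that moved come from summing near-identical genes: the RPF change of KRT81 was 4.68 when KRT81, KRT83 and KRT86 were summed, and with the 4 KRTAP2 genes summed the RNA change of KRTAP2-2 became 3.54 and its TE change 0.68. The KRTAP2 values with few wild-type reads also moved by over 1.5 times inside their wide intervals: with a prior count of 3 the RPF change was 4.64 for KRTAP2-4 (6.02 at 0.5) and 4.17 for KRTAP2-2 (5.13 at 0.5), the RNA change of KRTAP2-4 was 2.57 (4.91 at 0.5), and the summed KRTAP2 genes gave an RPF change of 4.22. The TE change of KRTAP2-2 alone, 4.06, rests on 8 and 4 RNA reads. Coding windows of KRT81 found in another gene ranged from 62.2% with windows of 34 nt to 82.2% with up to 2 mismatches, and those of KRT83 from 26.1% to 79.9%. A search of all GENCODE transcripts, added after the data were seen, gave 69.6% for KRT81 and 41.4% for KRT83. At a minimum of 20 reads, 3 KRTAP genes were called higher in RNA, against 1 at 50, and 1 type I hair keratin and 1 hair follicle regulator, against 0 at 50. Of the inner root sheath and companion layer keratins, 1 was then called higher in RNA, against 0 at 50, and 2 lower, against 1. Hair shaft and cornification partners called higher in RNA were 2, against 1 at 50, and those called lower were 3, against 2. Hair follicle regulators called higher in RPF were 2, against 1 at 50, and those called lower were 6, against 4. Keratins of stratified epithelium called lower in RNA were 6, against 5 at 50, and those called higher in RPF were 4, against 3. At a minimum of 200 reads, 3 of the 6 genes were called higher in RNA, against 4 at 50, and 4 in RPF, against 6 at 50. The genes lost were under that minimum: KRT82 in RNA (125 reads), and KRTAP2-2 and KRTAP2-4 in RPF (89 and 98 reads). Shares over all genes were computed at the minimum of 50 only. No paired analysis was possible because each group has 1 library, and for the same reason no replicate could be left out. Depth limits KRTAP2-2 and KRTAP2-4, which had under 50 RNA reads.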
